A study of Saccharomyces cerevisiae with 12 samples.

Results

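The vehicle-treated libraries of this native elongating transcript sequencing (NET-seq) series were examined on their own, as a baseline for RNA polymerase I (Pol I) on the yeast ribosomal RNA gene. They were selected by treatment label and make up 6 of the 12 libraries: 3 from an experiment harvested at 2 min and 3 from an experiment harvested at 16 min. The other 6 libraries, treated with the Pol I inhibitor BMH-21 at the same times, are given only beside the vehicle values. All 6 came from Saccharomyces cerevisiae with wild-type Pol I subunit sequences, in which RPA135 carried an HA tag and the deleted chromosomal RPA190 was covered by a plasmid copy. Cultures grew at 30 °C to an OD600 of 0.3 and received only the phosphate buffer in which the inhibitor was dissolved. The 2 times came from 2 separate experiments, so that time in vehicle and experiment cannot be told apart, and every difference reported here is between experiments. The study's methods describe the 3 libraries of a time as biological replicates.

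Pol I makes a single long transcript, the 35S pre-rRNA, which contains the 18S, 5.8S and 25S rRNAs and 4 spacers that are cut out and destroyed: the external spacers ETS1 and ETS2 at either end and the internal spacers ITS1 and ITS2. The polymerase moves unevenly and dwells longer at some nucleotides than at others. NET-seq captures Pol I with its nascent RNA and sequences the RNA 3′ end, which marks the last nucleotide the enzyme added. A tall peak is thus a pause or the end of another RNA that came along, such as a mature or partly cut rRNA or a fragment. The spacers, which the mature RNAs lack, therefore report the nascent signal more directly than the gene regions do. The terminator T1, where most Pol I stops, lies within ETS2.

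The values are RPM, in which read ends are scaled to each library's own sum on the 35S gene, so that they are shares of that gene's signal and not amounts of Pol I. The gene has 6858 positions, numbered from its start, of which 1504 lie in the spacers. It is encoded on the minus strand of chromosome XII from 460712 to 467569 (R64). The libraries held between 2386251 and 5339619 read ends at 2 min and between 1301590 and 10480384 at 16 min, and between 61839 and 390651 of these fell in the spacers. Vehicle 16 min replicate 2 stood apart. It had no read at 234 spacer positions, against 18 to 77 in the other 5 libraries, although with 2178796 read ends it was not the shallowest. Across the spacer positions, which share neighbours and sequence and are no independent points, Spearman's coefficient was 0.967 to 0.986 between 2-min libraries, 0.934 between 16 min replicates 1 and 3, and 0.744 to 0.761 between 16 min replicate 2 and the 2-min libraries. No vehicle library had a read at 12 positions. These were positions 3, 5 and 8 at the start of ETS1 and 3 adjacent positions at each 3′ end of a mature rRNA, 2499 to 2501 for 18S, 3018 to 3020 for 5.8S and 6647 to 6649 for 25S. Position 3021, the next one after the gap at 5.8S, was a tall peak in every vehicle library.

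The sequences below are the DNA of the transcribed RNA, 5′ to 3′, with the last incorporated nucleotide in capitals, 19 nt before it and 15 nt after it. They are shown because these 6 positions were high in every vehicle library, 1 or more from each spacer.
Position 102, ETS1, chrXII:467453-467487, minus strand: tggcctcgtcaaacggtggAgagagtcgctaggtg
Position 232, ETS1, chrXII:467323-467357, minus strand: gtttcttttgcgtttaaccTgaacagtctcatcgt
Position 405, ETS1, chrXII:467150-467184, minus strand: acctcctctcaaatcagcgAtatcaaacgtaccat
Position 2659, ITS1, chrXII:464896-464930, minus strand: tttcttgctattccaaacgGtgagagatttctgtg
Position 3158, ITS2, chrXII:464397-464431, minus strand: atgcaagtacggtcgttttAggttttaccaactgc
Position 6662, ETS2, chrXII:460893-460927, minus strand: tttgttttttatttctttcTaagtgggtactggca

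The next 5 are examples of positions that were lower in every 16-min library than in any 2-min library. They are not the only ones. In either direction, the groups did not overlap at 633 of 1414 tested spacer positions. Position 6739 is the T1 site itself.
Position 187, ETS1, chrXII:467368-467402, minus strand: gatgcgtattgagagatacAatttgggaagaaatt
Position 195, ETS1, chrXII:467360-467394, minus strand: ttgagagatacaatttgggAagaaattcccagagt
Position 358, ETS1, chrXII:467197-467231, minus strand: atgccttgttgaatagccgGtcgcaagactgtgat
Position 3080, ITS2, chrXII:464475-464509, minus strand: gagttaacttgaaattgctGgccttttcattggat
Position 6739, ETS2, chrXII:460816-460850, minus strand: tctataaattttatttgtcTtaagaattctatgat

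The main pause positions recurred in both experiments. When the top 2.5% of spacer positions, 38 in each library, were taken as pauses, 27 were pauses in all 6 libraries, which is 71.1% of each library's list. All lists together held 54 positions. Within one experiment, 34 were shared by the 3 libraries at 2 min and 31 by those at 16 min. Of the 27, ETS1 held 14, ITS1 held 2, ITS2 held 9 and ETS2 held 2. They comprised positions 98, 102, 144, 163, 232, 260, 336, 405, 419, 437, 496, 610, 622 and 623 of ETS1, 2571 and 2659 of ITS1, 3021 to 3026, 3136, 3150 and 3158 of ITS2, and 6661 and 6662 of ETS2. A group of 8 of them, 3021 to 3026 and 6661 and 6662, lay within 30 nt of the end of a mature rRNA. Whether the signal there marked paused Pol I or RNA ends left by cutting was not tested. Only 3 positions were pauses in every 2-min library and no 16-min library: 195 and 358 in ETS1, and the T1 position 6739. Only position 377 in ETS1 was a pause in every 16-min library and no 2-min library.

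When pauses were instead ranked by a local score, the RPM over the median of the positions up to 25 nt to either side in the same spacer, 23 positions were in the top 2.5% of all 6 libraries. Of these, 20 were also among the 27, which is 74.1% of the list by RPM and 87.0% of the list by local score. Position 6739 was then in the top of all 6 libraries, with a local score of 26.7 to 92.2. The T1 peak thus stood out from its neighbourhood in both experiments while its level differed between them.

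**Figure D1:**
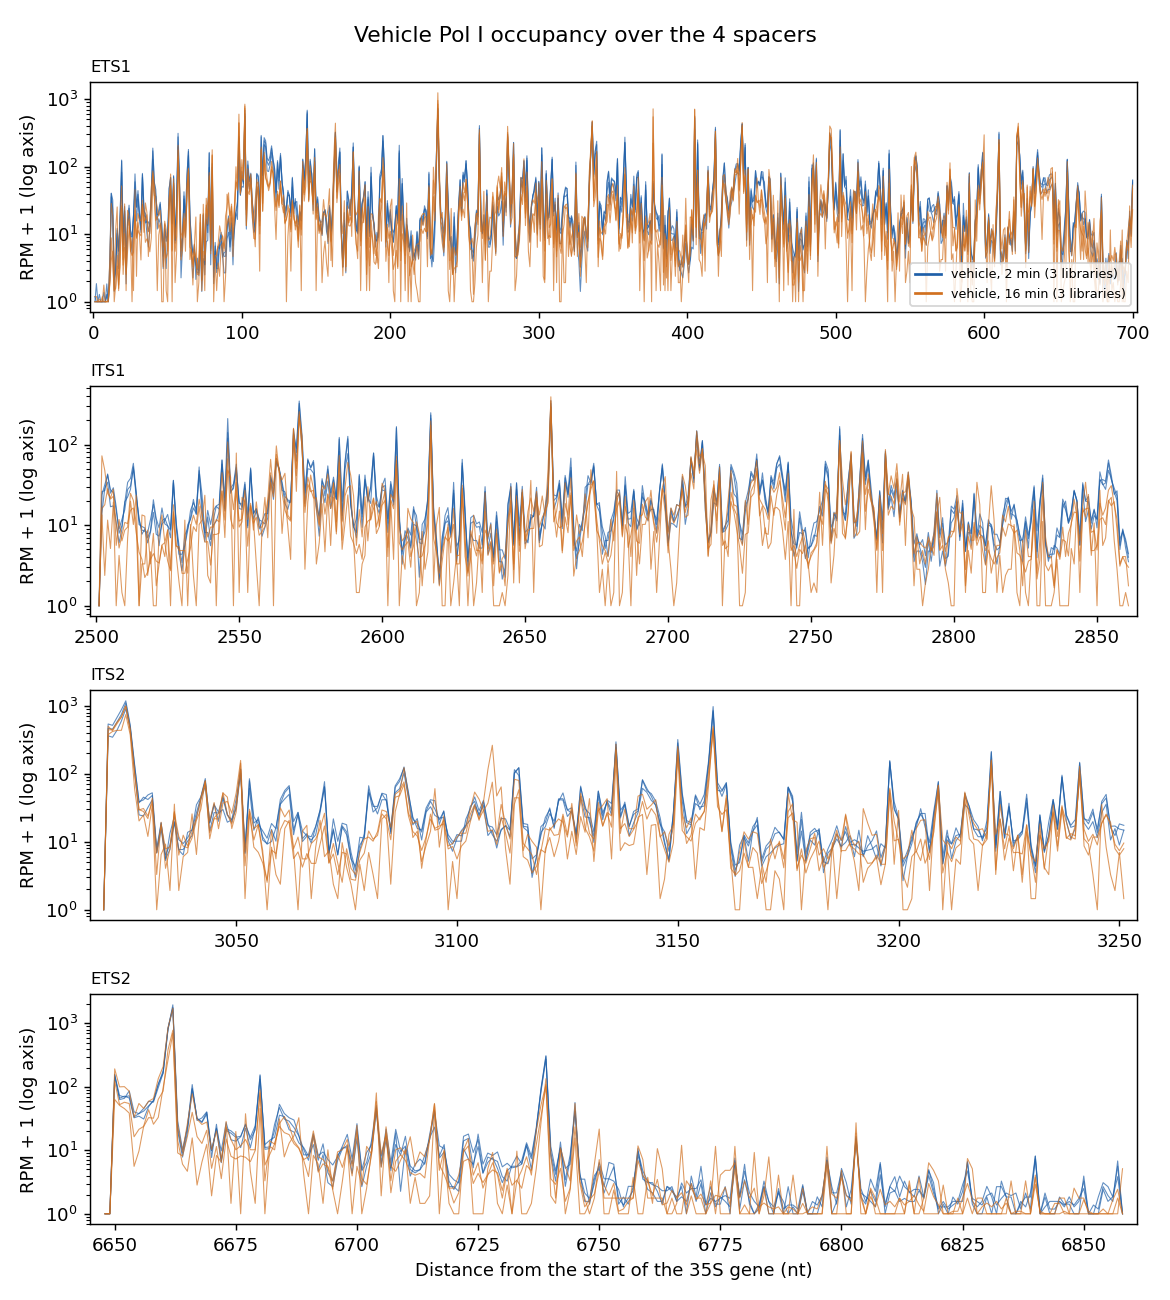
RPM + 1 on a log axis against the distance from the start of the 35S gene in nt, for each of the 4 spacers, with 1 line per vehicle library (blue 2 min, orange 16 min). The same tall peaks return in both experiments, including 6662 and 6739 in ETS2, and many low positions reach 0 in a 16-min library.

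In ETS1, the 3 positions with the highest mean over the 6 libraries were higher in each 16-min library than in any 2-min library. Position 102, with A as last base and G next, held 557, 606 and 683 RPM at 2 min and 789, 734 and 841 RPM at 16 min. Position 232, with U last and G next, held 579, 712 and 737 RPM at 2 min and 844, 955 and 1240 RPM at 16 min. Position 405, an A followed by U, held 352, 548 and 523 RPM at 2 min and 710, 698 and 562 RPM at 16 min. None of the 3 passed limma's moderated test over all positions. Their log2 fold changes of RPM + 1 were 0.36 ± 0.15 (SE), 0.57 ± 0.19 and 0.49 ± 0.21, with adjusted p of 0.144, 0.0964 and 0.169. Position 144, a C followed by A, was above 405 in every 2-min library, with 606, 685 and 649 RPM, and held 368, 335 and 364 RPM at 16 min.

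In ITS1, the highest position was 2659, a G followed by U, with 292, 351 and 321 RPM at 2 min and 291, 347 and 390 RPM at 16 min. The groups overlapped, and the log2 fold change was 0.09 ± 0.17 with an adjusted p of 0.742. The other high positions of ITS1, 2571 and 2617, were lower in each 16-min library than in any 2-min library. Position 2571 went from 312 ± 41.0 to 234 ± 21.3 RPM and position 2617 from 229 ± 18.9 to 170 ± 26.1 RPM (mean ± SD, n = 3 libraries each). Neither passed the test, with adjusted p of 0.134 and 0.126 by limma.

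In ITS2, positions 3024 and 3025, which lie 5 and 6 nt from the end of the mature 5.8S rRNA, overlapped between the experiments. Position 3025 held 906, 1102 and 1189 RPM at 2 min and 991, 745 and 1002 RPM at 16 min. Position 3158, an A followed by G in the middle of the spacer, differed. It held 823, 858 and 978 RPM at 2 min and 443, 501 and 473 RPM at 16 min. Its log2 fold change was -0.90 ± 0.14 with an adjusted p of 0.0173 by limma. Scaled to each library's spacer sum, it was -0.48 ± 0.21 with an adjusted p of 0.321 by limma. This pause stayed in the top 2.5% of all 6 libraries.

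In ETS2, the highest position of all spacers at 2 min was 6662, which lies 15 nt beyond the end of the mature 25S and directly before the residues cut by the endonuclease Rnt1. It held 1963, 1788 and 1712 RPM at 2 min and 781, 693 and 1735 RPM at 16 min. 16 min replicate 3 was thus at the 2-min level while the other 2 were not, and the neighbouring position 6661 had the same order, with 848 RPM in replicate 3 against 380.5 and 264 RPM. The adjusted p of 6662 was 0.129 by limma. The T1 position 6739 showed no such split: it held 300, 273 and 310 RPM at 2 min and 100, 134 and 108 RPM at 16 min. Its log2 fold change was -1.37 ± 0.16 with an adjusted p of 0.0115 by limma. On the scale of the spacer sum, it was -0.95 ± 0.25 with an adjusted p of 0.168 by limma. Beyond T1 the mean per position was low in both experiments, 2.07 ± 0.19 RPM at 2 min and 1.49 ± 0.36 RPM at 16 min over 119 positions, and the groups did not overlap.

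**Figure D2:**
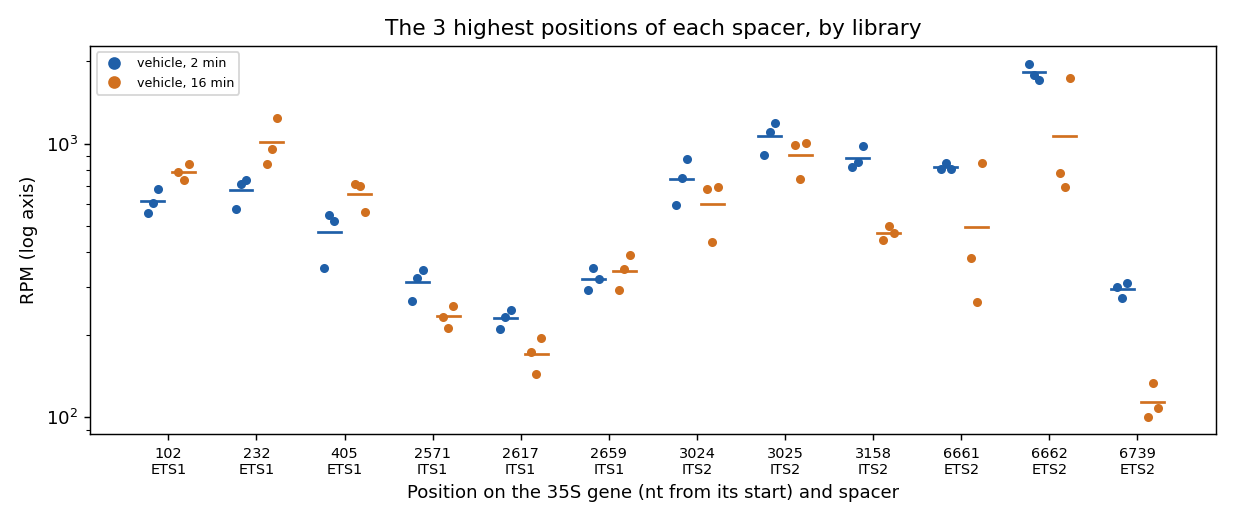
RPM on a log axis for the 3 positions of each spacer with the highest mean over the 6 vehicle libraries, named by position and spacer; points are libraries and bars are means of 3. The 3 ETS1 positions sit higher at 16 min, 3158 and the T1 position 6739 sit lower, and 6661 and 6662 split because 16 min replicate 3 stayed at the 2-min level.

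At 16 min, less of the 35S signal fell in the 4 spacers. They took 4.95, 5.78 and 5.82% at 2 min and 3.73, 3.86 and 4.75% at 16 min, which is 5.52 ± 0.49% against 4.11 ± 0.56% (SD, n = 3). The groups did not overlap, the log2 difference was -0.43, and the two-sided exact permutation p was 0.1, which 3 libraries against 3 cannot go below. Rescaled without position 6399 of 25S, described below, the difference was -0.38 and the groups still did not overlap. In the BMH-21 libraries, the same log2 difference between times was -1.61.

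The single spacers moved the same way. ITS1 went from 0.866 ± 0.054 to 0.590 ± 0.056%, ITS2 from 1.117 ± 0.12 to 0.823 ± 0.074% and ETS2 from 0.532 ± 0.013 to 0.335 ± 0.145%, with no overlap in any of the 3. In ETS2, 16 min replicate 3 held 0.501%, close to the lowest 2-min value of 0.517%, and replicates 1 and 2 held 0.269 and 0.235%. ETS1 went from 3.00 ± 0.33 to 2.36 ± 0.30% and the groups overlapped. 18S gained, from 27.3 ± 0.50 to 28.9 ± 0.80%, without overlap. 5.8S, with 4.05 ± 0.22 and 4.00 ± 0.37%, overlapped in both views. The 25S share was 63.1 ± 0.59 and 62.9 ± 0.47% as deposited and overlapped, but without position 6399 it was 63.0 ± 0.63 and 61.5 ± 0.17% and did not. After Benjamini-Hochberg adjustment over the 7 regions, no exact permutation p went below 0.175 as deposited or 0.14 without position 6399.

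The log2 ratio of ETS1 to ETS2 per position was 0.76 ± 0.19 at 2 min and 1.16 ± 0.44 at 16 min (SD, n = 3), the groups overlapped, and the exact permutation test gave p = 0.3. The difference of 0.40 was 0.37 without positions within 30 nt of a mature end and 0.64 without 16 min replicate 3, and then the groups did not overlap (exact permutation p = 0.1 in both). The log2 ratio of the first to the second 350 nt of ETS1 was 0.25 ± 0.02 and 0.20 ± 0.11, with p = 0.7 by the same exact test. Computed from median instead of mean RPM per position, the latter difference turned from -0.05 to 0.25, without overlap (exact permutation p = 0.1).

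**Figure D3:**
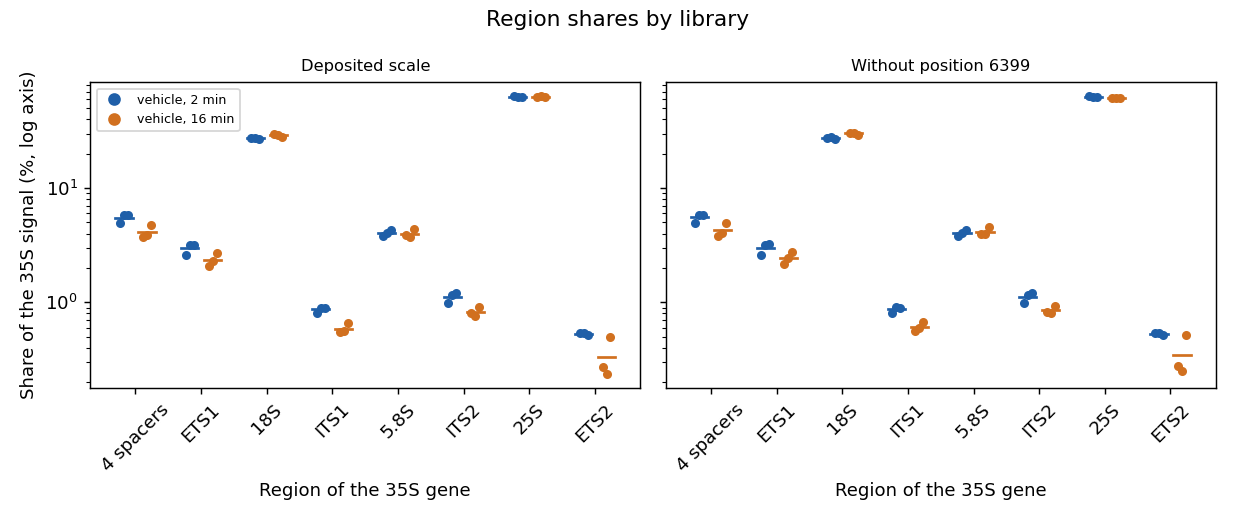
Share of the 35S signal in % on a log axis for the 4 spacers together and for each of the 7 regions, as deposited (left) and without position 6399 (right); points are libraries and bars are means of 3. The spacer share is 5.52% at 2 min and 4.11% at 16 min on the left, and the 16-min ETS2 point near 0.501% is replicate 3.

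Position by position, the test between the experiments called 9 spacer positions higher and 225 lower at 16 min, of 1414 spacer positions with a mean of at least 1 RPM (limma on log2(RPM + 1), adjusted p under 0.05). Over all 6763 tested positions of the gene, 4.1% were called higher and 8.09% lower. The median log2 fold change was -0.66 over the spacers and -0.02 over the gene regions. In the gene regions, 268 positions were called higher and 322 lower of 5349. Rescaling without position 6399 gave 10 higher and 206 lower in the spacers and turned the split in the gene regions to 322 higher and 272 lower. The calls depended on single libraries. With any one of the 2-min libraries left out, 0 positions of the gene were called and the lowest adjusted p was 0.0536 to 0.0909, with 375 to 452 spacer positions lower at an unadjusted p under 0.05. Without 16 min replicate 1 the spacer calls were 7 higher and 118 lower, without replicate 2, the library that stood apart, 26 higher and 560 lower, and without replicate 3, 6 higher and 334 lower. edgeR's quasi-likelihood test on the recovered reads called 13 higher and 201 lower.

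The lower calls were spread over the spacers: ETS1 had 126 of 686 tested positions, ITS1 49 of 360, ITS2 38 of 231 and ETS2 12 of 137. The 27 recurrent pauses had a median log2 fold change of -0.05, against -0.66 over the spacers, 18 of 27 were below 0, and 1 was called higher (position 98) and 2 lower (144 and 3158). Being in the top of every 16-min library was a condition of this list, which leaves out peaks that fell strongly, so that its median is a description only. By mean level, the median was -0.55 at 1 to 3 RPM, -0.72 at 3 to 10, -0.68 at 10 to 30, -0.64 at 30 to 100 and -0.41 at 100 RPM or more. Without 16 min replicate 2 it was -0.28, -0.48, -0.58, -0.60 and -0.32. The RPM + 1 scale understates changes at low positions, so that these medians cannot rank the low levels against the others. The top 2.5% of spacer positions held 30.6, 30.4 and 31.1% of the spacer signal at 2 min and 38.1, 36.2 and 37.5% at 16 min, without overlap (exact permutation p = 0.1, the smallest possible, in a comparison chosen after the values were seen). Scaled to each library's spacer sum instead, 0 positions were called in either direction by limma, with 84 higher and 168 lower at an unadjusted p under 0.05, while edgeR called 60 higher and 34 lower. Calls within the spacers on this scale thus depended on the test.

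The largest drops among spacer positions with at least 10 RPM were at 3080 in ITS2 and at 187, 310 and 387 in ETS1. Position 3080, a G followed by G, held 52.4, 65.9 and 57.2 RPM at 2 min and 13.5, 5.97 and 10.8 RPM at 16 min, and position 187, an A followed by A, held 97.3, 69.7 and 80.2 RPM and 10.2, 15.1 and 19.2 RPM. Their means were 5.82 and 5.55 times lower in the 16-min libraries, with log2 fold changes of -2.49 ± 0.28 and -2.42 ± 0.25 and an adjusted p of 0.0115 each by limma. Positions 310 and 387 had a single read in 16 min replicate 2, and without that library their log2 fold changes went from -2.34 to -1.61 and from -2.43 to -1.79. Position 310 held 5.34, 0.459 and 6.15 RPM at 16 min against 17.6 to 20.6 RPM at 2 min, and position 387 held 4.39, 0.459 and 4.61 RPM against 15.9 to 21.1 RPM. With a pseudocount of 0.1 limma called neither. Taller peaks also fell. Position 358 went from 242 ± 26.6 to 82.4 ± 11.9 RPM, position 195 from 271 ± 27.6 to 106 ± 25.9 RPM, and the recurrent position 144, given above, from 647 ± 39.7 to 356 ± 18.4 RPM.

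All 9 spacer positions called higher lay in ETS1, at 72, 87, 93, 96, 97, 98, 229, 377 and 631. There were 6 between 72 and 98, close to the start of the transcript. Position 98, a G followed by U and one of the 27 recurrent pauses, held 259, 279 and 267 RPM at 2 min and 445, 442 and 598 RPM at 16 min, a log2 fold change of 0.87 ± 0.17 (adjusted p 0.0263 by limma). Position 96 next to it rose from 20.2 ± 0.98 to 72.1 ± 23.1 RPM. Position 229 held 2.93, 6.56 and 5.97 RPM at 2 min and 34.9, 97.3 and 62.2 RPM at 16 min, and its log2 fold change of 3.36 ± 0.41 was the largest rise in the spacers. Position 631, a G followed by U, rose from 18.9 ± 0.58 to 42.5 ± 7.53 RPM. Position 377 is described with the 25S positions below.

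**Figure D4:**
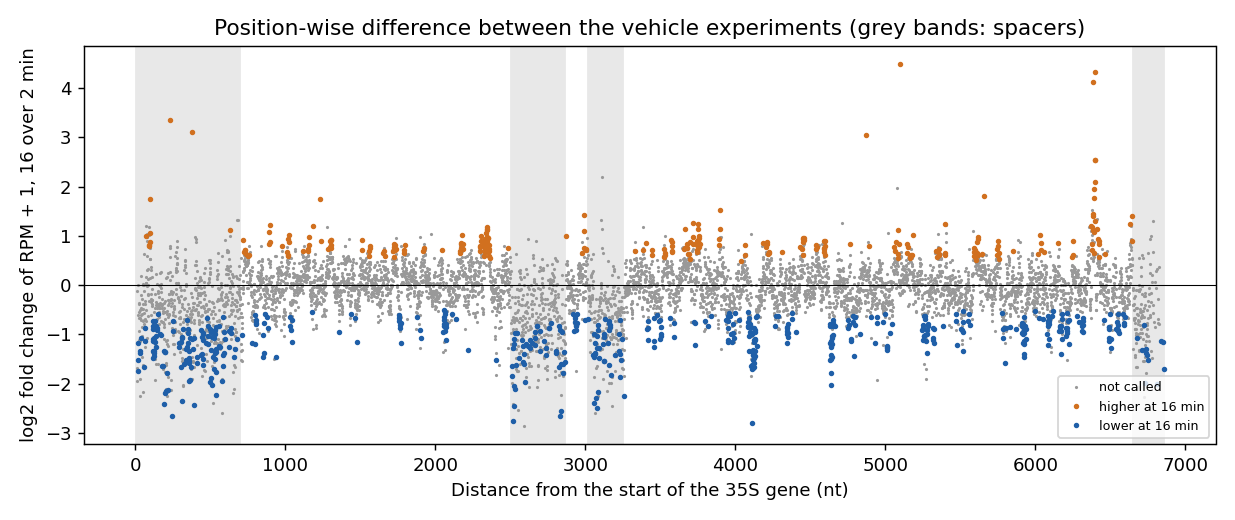
log2 fold change of RPM + 1, 16 over 2 min, for each tested position against its distance from the start of the 35S gene in nt; grey bands are the spacers, orange points were called higher, blue lower and grey not called at an adjusted p of 0.05. The spacers lie mostly below 0 (median -0.66), the gene regions around 0 (median -0.02), and a few positions in 25S rise by over 4 on the log2 scale.

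The largest rises of the whole gene were in 25S. Position 6399, a U followed by G that lies 248 nt before the end of 25S, was singled out when the libraries were chosen, and its values are a description. It held 341, 2019 and 7925 RPM in the 2-min libraries and 25017, 53828 and 32475 RPM in the 16-min libraries, which is 0.0341, 0.202 and 0.792% and 2.5, 5.38 and 3.25% of the 35S signal. It ranked first in every 16-min library and in 2 min replicate 3, but only 13th and 596th in 2 min replicates 2 and 1. The highest library was 23.3 times the lowest at 2 min and 2.15 times the lowest at 16 min, while the SD was 3983 RPM at 2 min and 14954 RPM at 16 min. The BMH-21 libraries had the same order, with 4604, 515 and 612 RPM at 2 min and 55541, 71857 and 54669 RPM at 16 min. Of the 40 tested positions within 20 nt to either side, itself left out, 16 were called higher by limma, against 160 of 3395, or 4.71%, over 25S. The 6 positions directly before it, 6393 to 6398, were among them and the 5 directly after it, 6400 to 6404, were not.

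Position 5094 of 25S held 106, 167 and 355 RPM at 2 min and 2907, 7494 and 3316 RPM at 16 min, a log2 fold change of 4.49 ± 0.52 (adjusted p 0.0115 by limma). Position 6383, 16 nt before 6399, held 104, 118 and 212 RPM at 2 min and 1030, 1939 and 7001 RPM at 16 min. Its highest library, 16 min replicate 3, was not the one that was highest at 5094 or 6399. The largest drops in the gene regions were at position 4109, from 65.8 ± 16.4 to 9.61 ± 5.76 RPM, and at the adjacent positions 4636 and 4637, which went from 440 ± 102 to 106 ± 5.44 RPM and from 337 ± 84.0 to 96.3 ± 18.2 RPM. In the gene regions, 140 of the 268 higher and 199 of the 322 lower had a neighbour called in the same direction, in runs of up to 13 and 22 positions. Mature rRNA contributes to these regions, and its part in the calls was not tested.

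The RNA 3′ ends were joined to a linker that starts with CA, goes on with random bases and then has a fixed stretch of 17 bases, given as ctccacgagtcatccgc in the labels, to which the reverse transcription primer pairs. In a read from a true RNA 3′ end this stretch follows the last base after 10 linker bases. A search was therefore made, chosen after the values were seen, for positions where the gene's own transcribed strand has the same letters from 11 nt after the position (CTCC or longer, this strand only). Such a match of at least 4 bases is present at 10 of the 6858 positions, or 0.146%. The sequences show the last incorporated nucleotide and the matching stretch in capitals, for the 3 matches that rose the most and, as a contrast, one of the 2 that were called lower.
Position 377, ETS1, chrXII:467175-467212, minus strand: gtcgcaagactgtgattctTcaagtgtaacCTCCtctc
Position 5094, 25S, chrXII:462458-462495, minus strand: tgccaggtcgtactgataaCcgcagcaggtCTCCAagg
Position 6399, 25S, chrXII:461153-461190, minus strand: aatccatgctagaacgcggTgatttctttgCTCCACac
Position 5922, 25S, chrXII:461630-461667, minus strand: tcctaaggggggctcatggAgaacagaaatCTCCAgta

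The longest match, CTCCAC, was at position 6399, the highest position of the vehicle libraries. Position 377 was the only match in the spacers and the only position in the top 2.5% of every 16-min but no 2-min library. It matched CTCC after a leading CA, as in the linker. None of the other matches, 6399 and 5094 included, has this CA after the last base. Position 377 held 38.1, 59.8 and 55.2 RPM at 2 min and 222, 717 and 546 RPM at 16 min, a log2 fold change of 3.12 ± 0.44 (adjusted p 0.0139 by limma). At positions 377, 5094 and 6399 alike, 16 min replicate 2 was the highest vehicle library. The 10 positions together held 0.305, 0.481 and 1.13% of the 35S signal at 2 min and 2.98, 6.37 and 3.80% at 16 min, most of it at 6399 and 5094. The other 8 held 0.261, 0.262 and 0.302% at 2 min and 0.185, 0.235 and 0.225% at 16 min, which is lower. The match did not go with a rise at every position. Of the 10, 7 had a log2 fold change above 0, 3 were called higher and 2 lower, and their median was 0.24. Among the 6753 tested positions with a shorter match or none, 274, or 4.06%, were called higher and 545 lower, with a median of -0.10. The matches called lower were positions 5011 and 5922. Position 5011, which matches CTCC, held 848, 750 and 909 RPM at 2 min and 366, 298 and 366 RPM at 16 min, and position 5922, which matches CTCCA, held 1082, 1186 and 1379 RPM at 2 min and 579, 507 and 561 RPM at 16 min. Position 229, the largest rise in the spacers, and position 6383 have no such match. Whether reads at the matching positions come from priming on the RNA itself was not tested.

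**Figure D5:**
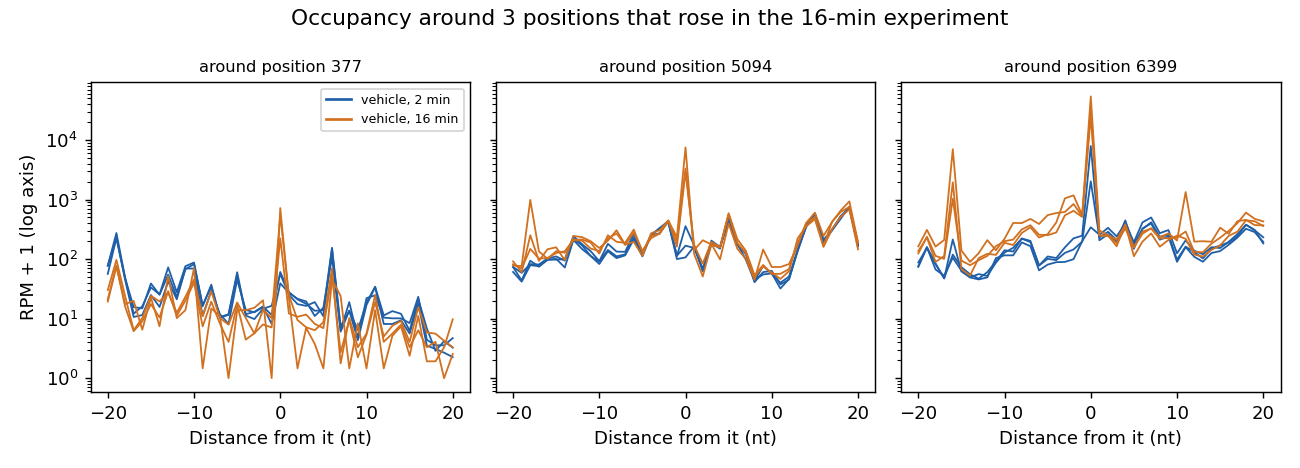
RPM + 1 on a log axis within 20 nt of positions 377, 5094 and 6399, with 1 line per vehicle library (blue 2 min, orange 16 min). The rises at 377 and 5094 are single-nucleotide peaks. Around 6399, position 6383 and the positions directly before 6399 are also higher at 16 min, while those directly after it are not.

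By last incorporated base, A took 34.8 ± 0.61% of the spacer signal at 2 min and 34.4 ± 1.71% at 16 min, against 28.4% of spacer positions, and U took 25.5 ± 0.61 and 26.01 ± 1.81%, against 33.0% of positions. A was thus over its share and U under it in all 6 libraries, and the experiments overlapped for both. The median RPM of spacer positions was likewise highest for A and lowest for U in each library, for example 24.0 and 10.5 RPM in 2 min replicate 2 and 12.9 and 4.59 RPM in 16 min replicate 2. G as last base took 23.6 ± 0.06 and 24.3 ± 0.64%, against 23.0% of positions. The groups did not overlap for G (exact permutation p = 0.1, 0.3 adjusted over the 12 base shares).

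By the base to be added next, G took 27.6, 27.7 and 27.9% of the spacer signal at 2 min and 30.0, 30.5 and 28.8% at 16 min, against 23.0% of positions. A took 24.96, 24.4 and 24.1% and then 21.6, 21.4 and 22.3%, against 28.3% of positions. C took 12.7 ± 0.06 and 13.7 ± 0.73%. None of these 3 overlapped between the experiments. Each had an exact permutation p of 0.1, the lowest this design can reach. Adjusted over the 12 base shares, that p was 0.3. With each position capped at the library's 99th percentile, the differences for G and A shrank from 2.04 to 1.16 and from -2.73 to -1.24 percentage points, still without overlap. That for C went from 1.04 to 0.66 points and the groups then overlapped (exact permutation p = 0.4), as they did away from mature ends, at 0.62 points (p = 0.5 by the same exact test). Of the 27 recurrent pauses, 7 are followed by G. Positions 102, 232 and 623 were higher in every 16-min library, 3158 was lower in each, and 163, 336 and 622 overlapped. Another 5 are followed by A. Positions 144 and 2571 were lower in every 16-min library, and 496, 3026 and 6662 overlapped. The mean of 3158 fell from 886 to 472 RPM and that of 6662 from 1821 to 1070 RPM. Position 377, which rose from 51.0 ± 11.4 to 495 ± 251 RPM, is followed by C. The shares were not recomputed without these peaks, so that a difference by next base may rest on few positions.

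Read as pairs of last and next base, A followed by G was the highest of the 16 pairs in all 6 libraries, with 1.67 to 1.86 times the mean spacer position. G followed by G (1.44 to 1.57), A followed by U (1.37 to 1.497), G followed by U (1.38 to 1.56) and C followed by U (1.21 to 1.497) were also above the mean throughout. The 88 positions with C followed by U include 3021, 3024 and 6661, all within 30 nt of a mature end. Their means at 2 min were 457, 742 and 822 RPM. The mean of this pair was not recomputed without them, so that it may rest on few positions. U followed by U, C followed by C and G followed by C had the lowest group means at both times, with single libraries between 0.460 and 0.573 times the mean. In 2 min replicate 1, C followed by G, at 0.553, was below U followed by U and G followed by C. U followed by C went from 1.20 ± 0.04 to 1.46 ± 0.08 times the mean, U followed by G from 0.762 ± 0.004 to 0.893 ± 0.033, A followed by A from 0.933 ± 0.033 to 0.838 ± 0.048 and U followed by U from 0.558 ± 0.016 to 0.496 ± 0.006, each without overlap and given as a description. The 83 positions with U followed by C include position 377, which rose from 51.0 ± 11.4 to 495 ± 251 RPM. The mean of this pair was not recomputed without position 377. Among the 27 recurrent pauses the last base was A in 8, G in 8, U in 6 and C in 5. More than 30 nt from the mature ends it was A in 8, G in 8, U in 2 and C in 1 of 19.

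The difference between times was compared with that of the BMH-21 libraries at each position, as an interaction in a limma fit over all 12 libraries. Of 6743 tested positions, 9, or 0.133%, differed towards a more positive change with BMH-21 and 10, or 0.148%, towards a more negative one. The 10 were all in the spacers and the 9 all in 18S and 25S. Over all tested positions the median interaction was -0.61 in the spacers and 0.17 in the gene regions, so that the split is not particular to the called positions. At position 3025, beside the end of 5.8S, the vehicle libraries overlapped between times, whereas the BMH-21 libraries held 1383, 664 and 817 RPM at 2 min and 74.2, 74.5 and 66.4 RPM at 16 min. The interaction there was -3.42 ± 0.35 on the log2 scale, with an adjusted p of 0.00725 by limma. The vehicle libraries serve both as one side of this test and as the subject of the comparisons above, so that the 2 sets of values are not independent.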

How the data were processed

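The libraries were made from RNA bound to HA-tagged Pol I. The authors trimmed and aligned the reads and counted read ends at each position of the 35S gene, and the deposited tables give these as RPM, scaled to each library's 35S sum. The submitters' processing notes name bcl2fastq 2.20.00, bedtools 2.26.0, cutadapt 1.12, R 4.0.2, SAMtools 1.6 and STAR 2.7.1a. The linker holds a random identifier. Whether reads were merged by it is not given in the sources used here, so that depth covers counting error only. The value columns of the tables are headed wild type and mutant and were taken as vehicle and BMH-21, the order in which each table's name gives the treatments. Columns holding the authors' own p-values and averages were not used. Regions and the T1 and Rnt1 sites are those of the deposited tables, whose 6858 bases all matched RefSeq R64.

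From the RPM values, whole reads were recovered by dividing by the value of 1 read, and at least 99.9% of values in each library came out within 0.02 of a whole number. Positions with a mean of at least 1 RPM over the 6 vehicle libraries were tested with limma 3.58.1 on log2(RPM + 1), with Benjamini-Hochberg adjustment over all tested positions and a threshold of 0.05. A fold change on this scale understates the change at low positions. edgeR 4.0.16 (quasi-likelihood, TMM) on the recovered reads was an alternative. Region, ratio and base shares were compared with exact permutation tests, two-sided. Scripts were tested on simulated data. Named positions were the 3 highest of each spacer by mean log2(RPM + 1), the 4 largest changes in each direction among called spacer positions and the 3 largest in the gene regions, with a mean of at least 10 RPM and groups that did not overlap, and position 6399. Others were named after their values were seen. The members, lists and tests were chosen with earlier results of these data known.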

Additional observations from a re-analysis of the deposited data

Results flagged for a closer look

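Under a test of the difference itself, the change between 2 and 16 min differed between BMH-21 and vehicle libraries at 10 spacer positions, all more negative with BMH-21, and at 9 gene region positions, all more positive with BMH-21 (limma interaction, adjusted p under 0.05). The median over all tested positions had the same signs, -0.61 in the spacers and 0.17 in the gene regions. Of the 10, 6 were the adjacent positions 3021 to 3026 beside the end of 5.8S, and the others were 411, 2569, 3157 and 6716, 1 in each spacer. At position 6716 the vehicle libraries held 22.2, 41.4 and 39.8 RPM at 2 min and 52.6, 42.7 and 53.8 RPM at 16 min, and the BMH-21 libraries 13.7, 12.5 and 12.8 RPM and 2.12, 2.65 and 3.79 RPM. The 9 were 936, 1187, 1421, 1766 and 1768 in 18S and 4745, 5726, 6285 and 6286 in 25S. At position 936 the difference lay in the vehicle libraries, with 171, 133 and 133 RPM at 2 min and 54.5, 56.9 and 44.6 RPM at 16 min, while the BMH-21 libraries held 58.2, 43.6 and 58.0 RPM and 71.4, 66.8 and 53.1 RPM. The spacer count was 1 to 15 and the gene region count 0 to 14 when a vehicle library was left out. No cause was tested.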

How the results depend on the processing

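Position calls depended on the libraries and the fit. With one vehicle library left out at a time, the spacer calls ranged from 0 to 26 higher and 0 to 560 lower, those in the gene regions from 0 to 602 higher and 0 to 662 lower, and those on the spacer-sum scale from 0 to 47 higher and 0 to 142 lower. The 12-library fit called 3 spacer positions higher and 100 lower. edgeR called 648 gene region positions higher and 426 lower, and a variance trend in limma, added after seeing the data, called 430 and 526. On the spacer-sum scale the counts higher and lower were 17 and 39 with a mean of at least 10 RPM, 60 and 34 with edgeR, 28 and 39 with the variance trend, 1 and 0 with all 12 libraries and 0 and 2 without a filter. The difference between treatments in the spacers gave 19 lower with a pseudocount of 0.1, 1 higher and 24 lower on the spacer-sum scale, and 0 to 1 higher and 1 to 15 lower with a library left out.

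With the replicate number as a block, 0 positions of either kind were called, with a lowest adjusted p of 0.0551, and the difference between treatments had 6 in the spacers. The values gave no sign that the numbers pair the samples. The correlation of same-numbered deviations was -0.03, -0.12 and 0.13, and not every library correlated best with its own number. With 3 libraries per time, such correlations cannot exclude a pairing.

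Some directions turned. The log2 difference of the 5.8S share was 0.0279 without position 6399 and -0.0966 to 0.0278 with a library left out, that of 25S -0.0102 to 0.0032, and that of the ratio within ETS1 0.25 with medians, without overlap, and -0.101 to 0.0133 with a library left out. Among top positions the difference by last base was -4.17, -2.19 and -0.22 percentage points for A in the top 1, 5 and 10%, 1.32 and 0.22 for C in the top 5 and 10%, 8.33 for G in the top 1%, and -2.94 for U away from mature ends or -0.88 to 3.07 with a library left out. By signal, C was 0.54 with capped values, without overlap, and with a library left out A was -1.10 to 0.57 and U -0.56 to 1.11. Position 2659 was -0.011 to 0.20 with a library left out. In the gene regions, 268 positions were called higher and 322 lower in the main fit. That split turned to 648 and 426 with edgeR, 322 and 272 without position 6399 and 304 and 285 with median ratio scaling. The median there was -0.02 in the main fit, 0.07 with edgeR and -0.04 to 0.01 with a library left out. On the spacer-sum scale, 84 were higher and 168 lower at an unadjusted p under 0.05 by limma, while edgeR called 60 and 34. The cause was not tested. The other directions of shares, ratios and named positions held. The spacer share stayed lower at 16 min in each alternative run, by -0.54 to -0.36 with a library left out, and 27 to 29 pauses recurred.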
